A study of Rattus norvegicus with 10 samples.

Results

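The transcripts described here are 10 feedback genes of the ERK pathway, namely the MAPK phosphatases Dusp1, Dusp2, Dusp4, Dusp5, Dusp6 and Dusp14, the Sprouty genes Spry1, Spry2 and Spry4, and the Sprouty-related gene Spred1. They were taken by name from a table of 32545 rat genes, each matched 1 row, and all 10, called members below, were among the 15032 genes that passed the filter on low counts. RNA had been sequenced from the CA1 region of hippocampal slices in 10 libraries, 2 for each of 5 groups. The CA1 region was microdissected, and the rats, where the study states it for its slice recordings, were male Wistar rats of 5 to 7 weeks. The SKF group received SKF, an agonist of the dopamine D1/D5 receptors, which signal through cAMP. SKF+Aβ received the agonist with oligomers of the amyloid-beta peptide at 200 nM. SKF+Aβ+CSP also received glucose-derived carbon nanospheres (CSP), and SKF+Aβ+CSP-TTK21 the nanospheres loaded with TTK21, a small molecule that activates the histone acetyltransferases CBP and p300, each at 0.36 µg/ml. The CSP-TTK21 group received the loaded particle without SKF and without Aβ, so that against SKF it differs in both the agonist and the particle. Slices had 30 min of basal stimulation and were collected 1 h after treatment. Each repeat pooled 2 slices from 2 biological samples. An untreated group is not analysed here, so no level without any treatment can be given.

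ERK and the related kinases p38 and JNK are switched on by phosphorylation. Dual-specificity phosphatases remove these phosphates, and Sprouty and Spred proteins act upstream, where growth factor receptors engage Ras and Raf. Many of these genes are transcribed in response to ERK activity itself, so that they form a negative feedback loop and their transcripts are commonly read as a trace of recent ERK signaling. In hippocampal neurons the same pathway links synaptic activity to gene transcription. Phosphorylated ERK was not measured in these libraries, and the values below are transcript levels.

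Total counts were between 6753742 and 8473407 per library. A floor of 3 counts is 0.354 to 0.444 CPM (count scaled to the library total), depending on the library. Levels are given as normalized CPM, in which the library total is adjusted by the TMM factor of edgeR. They are compared only for the same gene across libraries, because they are not per length. The least counted of the 10 genes, Dusp2, had 25 counts in its lowest library. Pyramidal neuron markers were abundant, with Camk2a between 1347.5 and 2141 normalized CPM. Among CA1 markers Wfs1 was between 97.9 and 371, while Fibcd1 had 0 counts in all libraries. Prox1, a marker of dentate granule cells, was between 141 and 247. Oligodendrocyte markers summed to between 9908 and 22858, and the endothelial marker Cldn5 and the fibroblast marker Col1a2 were listed at 0 in all libraries. In bulk tissue of this kind, fewer cells of a type and less RNA per cell cannot be told apart. None of the tested markers in 11 cell type lists had an adjusted p-value under 0.05 in any comparison (edgeR).

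Upstream sequence is shown for 3 phosphatase genes with lower estimates in CSP-TTK21 alone than in SKF, Dusp1, Dusp5 and Dusp6, because SKF acts through cAMP and they differ in the upstream motifs searched, Dusp6 holding none. The sequences are the 250 bases before the transcription start in RefSeq, build GRCr8, on the plus strand, and capitals mark cAMP response element letters and CArG boxes. The Dusp1 window is chr10:17184603-17184852, that of Dusp5 is chr1:262543524-262543773 and that of Dusp6 is chr7:35979354-35979603.
Dusp1: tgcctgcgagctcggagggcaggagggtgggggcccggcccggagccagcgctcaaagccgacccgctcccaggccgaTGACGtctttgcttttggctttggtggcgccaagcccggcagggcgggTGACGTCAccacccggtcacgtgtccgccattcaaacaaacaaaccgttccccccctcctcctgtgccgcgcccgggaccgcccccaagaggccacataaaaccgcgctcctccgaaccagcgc
Dusp5: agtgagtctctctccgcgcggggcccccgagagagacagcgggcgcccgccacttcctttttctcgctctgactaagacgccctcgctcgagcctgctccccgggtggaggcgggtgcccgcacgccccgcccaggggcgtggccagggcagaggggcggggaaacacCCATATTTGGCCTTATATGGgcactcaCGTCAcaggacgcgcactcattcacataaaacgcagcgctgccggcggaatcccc
Dusp6: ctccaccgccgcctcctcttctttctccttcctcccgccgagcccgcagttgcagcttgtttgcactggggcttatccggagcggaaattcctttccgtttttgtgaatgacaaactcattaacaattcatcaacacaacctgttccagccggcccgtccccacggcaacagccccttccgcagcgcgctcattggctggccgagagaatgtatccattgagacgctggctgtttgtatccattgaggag
Dusp1 holds the full palindrome TGACGTCA from 124 to 117 bases before its start, which contains the core TGACG on both strands, and a further core from 172 to 168. Dusp5 holds 2 adjoining CArG boxes, the letters recognised by serum response factor, from 82 to 73 and from 72 to 63 bases before its start, and 1 core from 55 to 51. Dusp6 holds none of the searched letters in this window. In total, 12 windows were found for 9 of the 10 genes, with 3 for Dusp14 and 2 for Spry2 from separate starts and none for Dusp4, and both strands were searched. The full palindrome was in 1 of the 12 windows, against 1.59% of 33469 rat promoter windows of this length. A CArG box was in 1, against 1.5% of windows. The core TGACG was in 5 of the 12 windows, those of Dusp1, Dusp2 and Dusp5 and 1 each of Dusp14 and Spry2, against 18.2% of windows. The AP-1 letters TGANTCA were in 1 window, of Dusp14, against 6.34%, and the ETS letters CCGGAA in 3, 1 each of Dusp14, Spry2 and Spry4, against 12.6%. A match of letters is a description and not a measured binding site.

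With the 5 groups compared in one test, 0 of the 10 genes passed an adjusted threshold of 0.05 (quasi-likelihood F test of edgeR, adjusted by Benjamini-Hochberg over all genes tested), where 0.00665% of all genes tested passed it. Dusp5 had the lowest unadjusted p-value, 0.0489, and an adjusted p-value of 0.346 from edgeR, and was the one gene of the 10 with an unadjusted p-value under 0.05, against 14.4% of all genes. Spry4 had the highest, 0.952. Across the 7 comparisons between groups, 0 of 70 tests passed the adjusted threshold with edgeR, and 9, or 12.9%, had an unadjusted p-value under 0.05, close to the 12.4% of all 105224 tests, and the lowest adjusted p-value was 0.151. With DESeq2 the lowest adjusted p-value of a member in any comparison was 0.145, with Dusp2, Dusp14 or Spry1 left without one by its own filter on low counts in some comparisons. An exact permutation test between a pair of groups of 2 cannot reach 0.05 for a single gene, and the tests depend on how edgeR pools the spread over genes and groups. The p-values measure the spread between these pooled samples.

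**Figure D1:**
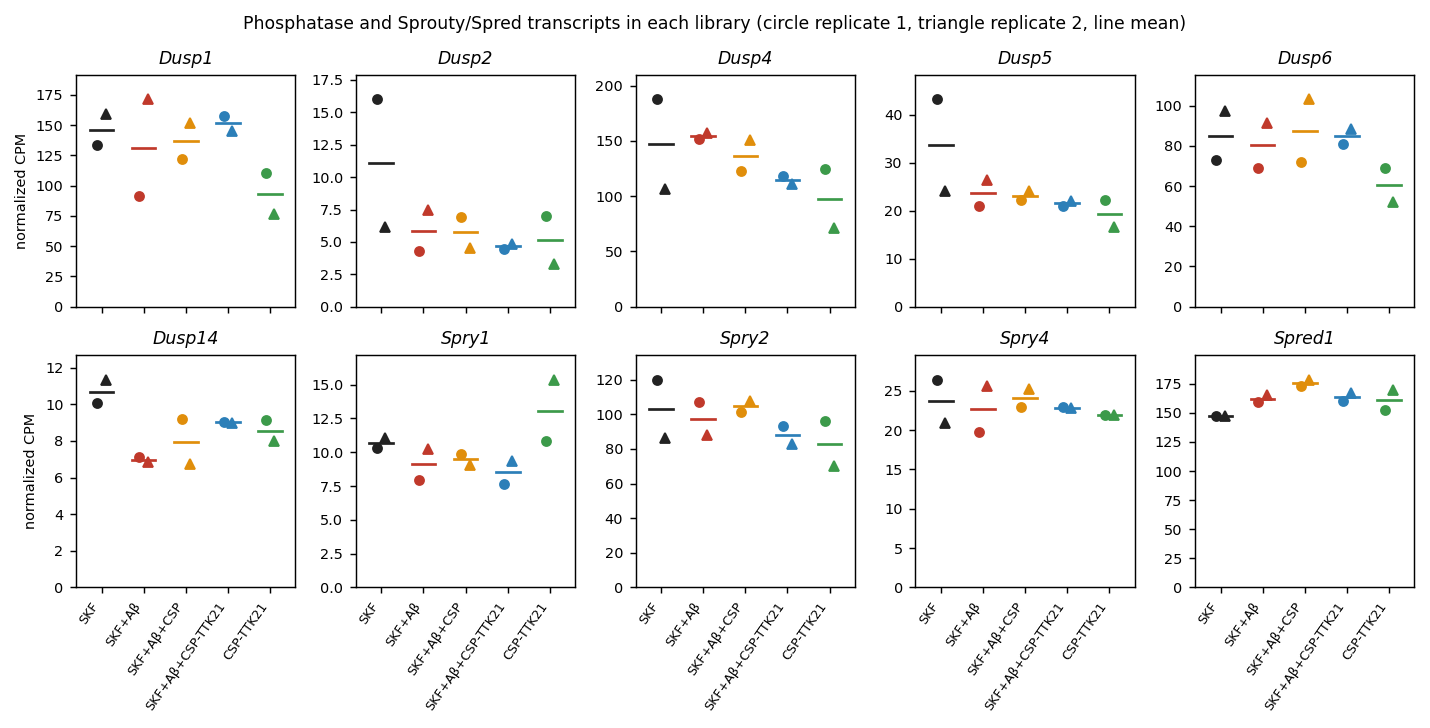
Normalized CPM of the 10 genes (vertical axes, starting at 0) in the 5 groups (horizontal axes). Each symbol is a library, circles replicate 1 and triangles replicate 2, and lines are means of 2 libraries. In SKF the Dusp2 and Dusp5 libraries lie far apart, at 16.0 and 6.13 and at 43.2 and 24.1, while those of Spred1 are at 147.5 and 147.2.

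The inducible nuclear phosphatases come first. Dusp1, an immediate early phosphatase that acts on p38 and JNK as well as ERK, was at 134 and 159 normalized CPM in the SKF libraries, 91.0 and 171 in those of SKF+Aβ, 122 and 152 in those of SKF+Aβ+CSP, 157 and 145 in those of SKF+Aβ+CSP-TTK21, and 110 and 76.2 in those of CSP-TTK21 alone. The CSP-TTK21 libraries were below both SKF libraries, and the 2 SKF+Aβ libraries spanned most of the range of all 10. Against SKF the log2 fold change of Dusp1 in CSP-TTK21 was -0.65 (standard error, SE, 0.25, 95% interval -1.18 to -0.12, adjusted p = 0.633 from edgeR), and -0.41 without CSP-TTK21 replicate 2. In SKF+Aβ it was -0.16, with an interval of -0.69 to 0.37.

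Dusp2, another inducible nuclear phosphatase, was at 16.0 and 6.13 normalized CPM in the SKF libraries, from 116 and 46 counts. In the other 8 libraries it lay between 3.33 and 7.44, so that the first SKF library was above all others and the second was within their range. The mean was 11.1 ± 6.98 for SKF, 5.88 ± 2.20 for SKF+Aβ, 5.74 ± 1.71 for SKF+Aβ+CSP, 4.65 ± 0.263 for SKF+Aβ+CSP-TTK21 and 5.18 ± 2.61 for CSP-TTK21 (SD, n = 2). The lowest-to-highest range over libraries was 4.80-fold, the widest of the 10 genes. The largest difference was that of SKF+Aβ+CSP-TTK21 from SKF, a log2 fold change of -1.25 (SE 0.46, 95% interval -2.23 to -0.26, adjusted p = 0.172 from edgeR), with no overlap between the groups. It was -0.41 without SKF replicate 1 and -1.78 without SKF replicate 2, where the adjusted p-value from edgeR was 0.0452 and 2.14% of all genes passed.

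Dusp5, a nuclear phosphatase specific for ERK, had the same 2 highest libraries as Dusp2, SKF replicate 1 and SKF+Aβ replicate 2. It was at 43.2 and 24.1 normalized CPM in the SKF libraries, 20.9 and 26.3 in those of SKF+Aβ, 22.2 and 24.1 in those of SKF+Aβ+CSP, 21.0 and 22.1 in those of SKF+Aβ+CSP-TTK21, and 22.2 and 16.5 in those of CSP-TTK21. The first SKF library stood above all others, the second was within their range, and both were above the libraries of the groups with CSP-TTK21. The log2 fold changes against SKF were -0.51 for SKF+Aβ, -0.54 for SKF+Aβ+CSP, -0.64 for SKF+Aβ+CSP-TTK21 and -0.80 for CSP-TTK21, with adjusted p-values from edgeR of 0.231, 0.247, 0.185 and 0.633. These 4 values share the SKF libraries. Without SKF replicate 1 they were -0.048, -0.074, -0.18 and -0.32.

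Dusp4, a nuclear phosphatase that is itself induced by ERK signaling, was at 187 and 106 normalized CPM in the SKF libraries, 152 and 157 in those of SKF+Aβ, 122 and 151 in those of SKF+Aβ+CSP, 119 and 111 in those of SKF+Aβ+CSP-TTK21, and 124 and 71.2 in those of CSP-TTK21. The SKF pair spanned all other libraries except 1, the second CSP-TTK21 library, which was lower. The log2 fold change of CSP-TTK21 from SKF was -0.59 (SE 0.26, 95% interval -1.14 to -0.036, adjusted p = 0.633 from edgeR), and it was -0.12 without SKF replicate 1.

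Dusp6, the cytoplasmic phosphatase specific for ERK, was at 72.8 and 97.1 normalized CPM in the SKF libraries, 69.1 and 91.3 in those of SKF+Aβ, 72.1 and 103 in those of SKF+Aβ+CSP, 81.1 and 88.5 in those of SKF+Aβ+CSP-TTK21, and 69.2 and 52.0 in those of CSP-TTK21. The 4 groups given SKF overlapped one another, and the CSP-TTK21 libraries lay at or below their lower edge. Its log2 fold change between CSP-TTK21 and SKF was -0.49 (SE 0.21, 95% interval -0.94 to -0.037, adjusted p = 0.633 from edgeR), and with single libraries left out it was between -0.72 (without CSP-TTK21 replicate 1) and -0.26 (without SKF replicate 2). Between SKF+Aβ and SKF it was -0.084, with an interval of -0.53 to 0.36.

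Dusp14, a small atypical phosphatase, showed another pattern. It was at 10.1 and 11.3 normalized CPM in the SKF libraries, 7.11 and 6.84 in those of SKF+Aβ, 9.20 and 6.73 in those of SKF+Aβ+CSP, 9.06 and 8.96 in those of SKF+Aβ+CSP-TTK21, and 9.12 and 8.0 in those of CSP-TTK21. Both SKF libraries were above all 8 other libraries, which held for 7.48% of all genes tested. The difference of SKF+Aβ from SKF, a log2 fold change of -0.62 (SE 0.24, 95% interval -1.13 to -0.098), had the lowest adjusted p-value of all members in all comparisons, 0.151 from edgeR. Leaving out single libraries moved it between -0.71 and -0.53. By unadjusted p-value, 0.0232 from edgeR, this difference was not the lowest among the members in all comparisons. SKF+Aβ+CSP-TTK21 was above SKF+Aβ in both libraries, by a log2 fold change of 0.37 with an interval of -0.16 to 0.89 (adjusted p = 0.777 from edgeR).

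The Sprouty genes, whose products restrain signaling from receptor tyrosine kinases to Ras and Raf, had 95% intervals that included 0 in each comparison with SKF. Spry1 was at 10.3 and 11.1 normalized CPM in the SKF libraries, 7.94 and 10.3 in those of SKF+Aβ, 9.90 and 9.07 in those of SKF+Aβ+CSP, 7.65 and 9.39 in those of SKF+Aβ+CSP-TTK21, and 10.8 and 15.3 in those of CSP-TTK21. It was the gene of the 10 with its highest level in the second CSP-TTK21 library, in which Dusp1, Dusp2, Dusp4, Dusp5, Dusp6 and Spry2 had their lowest. The log2 fold change of Spry1 in CSP-TTK21 against SKF was 0.29 (95% interval -0.22 to 0.80, adjusted p = 0.767 from edgeR). It was 0.014 without CSP-TTK21 replicate 2 and 0.50 without CSP-TTK21 replicate 1.

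Spry2 was at 120 and 86.3 normalized CPM in the SKF libraries, 107 and 87.9 in those of SKF+Aβ, 101 and 108 in those of SKF+Aβ+CSP, 93.0 and 82.7 in those of SKF+Aβ+CSP-TTK21, and 95.9 and 70.2 in those of CSP-TTK21, and each group overlapped with the SKF pair. Spry4 was between 19.8 and 26.3 in all 10 libraries, a 1.33-fold range, with group means from 21.9 to 24.0. The log2 fold changes of Spry4 against SKF were between -0.11 and 0.022, and the 95% intervals of the 4 fold changes lay between 0.708 and 1.33.

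Spred1, which restrains Ras together with neurofibromin, had the narrowest range, 1.21-fold over the libraries. It was at 147.5 and 147.2 normalized CPM in the SKF libraries, 159 and 165 in those of SKF+Aβ, 173 and 178 in those of SKF+Aβ+CSP, 160 and 167 in those of SKF+Aβ+CSP-TTK21, and 152 and 169 in those of CSP-TTK21. Both SKF libraries were below all others, which held for 9.58% of genes tested, and both SKF+Aβ+CSP libraries were above all others, which held for 1.89%. The log2 fold change between SKF+Aβ+CSP and SKF was 0.25 (SE 0.12, 95% interval -0.00019 to 0.51, unadjusted p = 0.0501 and adjusted p = 0.259 from edgeR).

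The first question of the design is what Aβ changed in slices given SKF. Between SKF+Aβ and SKF 0 of the 10 genes passed the adjusted threshold, against 2.08% of all genes tested, and 8 had a lower and 2 a higher estimate. The median log2 fold change was -0.12 over the members and -0.0013 over all genes. At an unadjusted p-value under 0.05, 1 member was lower, Dusp14, against 10.9% of all genes, and 0 were higher, against 12%. Dusp14 and Spry1 had no overlap with SKF on the lower side, against 24.3% of all genes. The vehicle and loaded particle groups gave 0 members at the adjusted threshold against SKF as well, where 0.02% of all genes passed for SKF+Aβ+CSP and 0.00665% for SKF+Aβ+CSP-TTK21. At the unadjusted threshold 1 member was lower in SKF+Aβ+CSP, Dusp5, against 9.04% of all genes, and 0 were higher, against 10.3%. In SKF+Aβ+CSP-TTK21, 2 were lower, Dusp2 and Dusp5, against 8.78%, and 0 higher, against 10.8%. Below SKF with no overlap were 2 members in SKF+Aβ+CSP, Dusp14 and Spry1, against 25.3% of all genes, and 4 in SKF+Aβ+CSP-TTK21, these 2 with Dusp2 and Dusp5, against 24.5%.

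**Figure D2:**
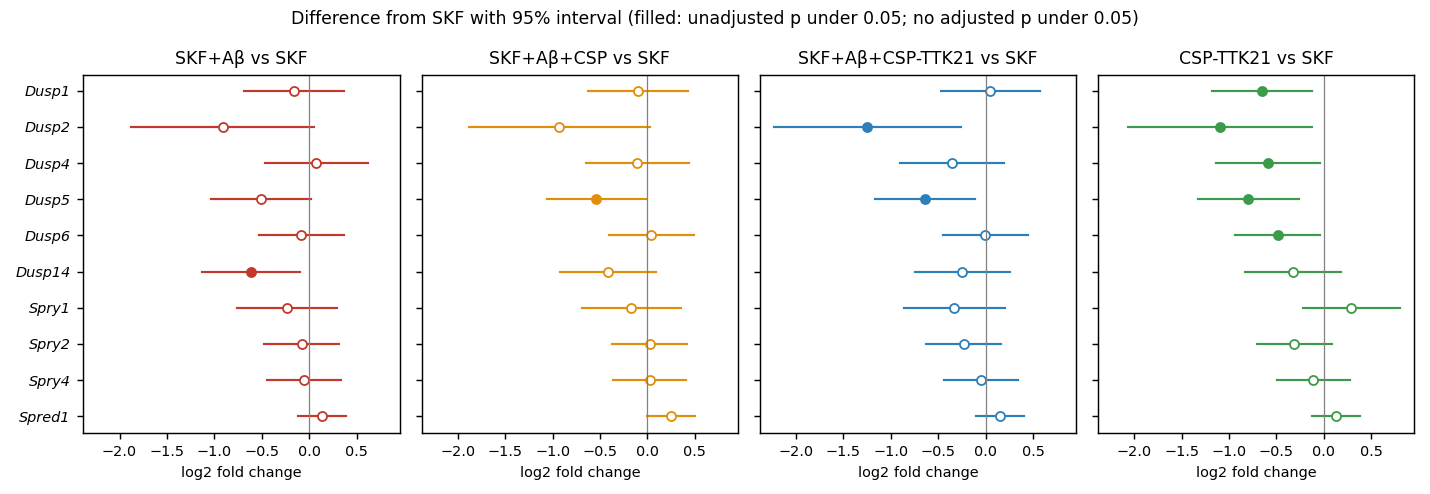
Log2 fold changes (horizontal axes) of the 10 genes against SKF in each of the other 4 groups, with 95% intervals from edgeR, filled where the unadjusted p-value was under 0.05. The phosphatases Dusp1, Dusp2, Dusp4, Dusp5 and Dusp6 lie between -1.10 and -0.49 in CSP-TTK21 alone, and the Sprouty and Spred1 intervals include 0 in all 4 panels.

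The question whether CSP-TTK21 altered the feedback genes in the presence of Aβ is addressed by 2 comparisons. Between SKF+Aβ+CSP-TTK21 and the vehicle group SKF+Aβ+CSP, 0 members passed the adjusted threshold and 0 the unadjusted one, against 0% and 8.77% of all genes. The log2 fold changes were between -0.32 for Dusp2 and 0.17 for Dusp14, and 8 of 10 were below 0. Against SKF+Aβ there were likewise 0 members at both thresholds, against 0% and 6.59% of all genes, with values between -0.43 for Dusp4 and 0.37 for Dusp14. The vehicle itself, SKF+Aβ+CSP against SKF+Aβ, gave 0 members at both thresholds, against 0% and 2.18%, and values between -0.18 for Dusp4 and 0.20 for Dusp14. The intervals set the limit of these comparisons. For Dusp1 the interval between SKF+Aβ+CSP-TTK21 and the vehicle was -0.38 to 0.67, and for Dusp2, with the fewest counts, it was -1.34 to 0.71.

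Between CSP-TTK21 alone and SKF, 0 members and 0% of all genes passed the adjusted threshold with edgeR. Of the 10 members 5 were lower at an unadjusted p-value under 0.05, Dusp1, Dusp2, Dusp4, Dusp5 and Dusp6, against 3.63% of all genes on that side, and 0 were higher, against 4.16%. The summed levels of the 4 matched pyramidal neuron markers moved the same way, without overlap. They were 4195 and 4684 normalized CPM in SKF and 3989 and 3560 in CSP-TTK21. These sums were below SKF without overlap in SKF+Aβ as well, at 3456 and 3842, and in SKF+Aβ+CSP, at 3610 and 3224. In SKF+Aβ+CSP-TTK21 they overlapped with SKF, at 4000 and 4267. Oligodendrocyte markers were also lower without overlap, at 13787 and 13560 in CSP-TTK21 against 14447 and 21833 in SKF. Those of the 5 interneuron markers moved the other way, at 357 and 364 in SKF against 383 and 431. The part of these sums in the counts of members was not tested. With DESeq2 the number at the unadjusted threshold was likewise 5, against 4.98% of all genes in either direction, where edgeR had 7.78%. The median log2 fold change was -0.40 over the members, -0.62 over the 6 phosphatases and 0.0085 over the Sprouty genes and Spred1, beside 0.0023 over all genes. The groups did not overlap on the lower side for Dusp1, Dusp5, Dusp6 and Dusp14, 4 of 10, against 17.3% of all genes. The count at the unadjusted threshold changed with single libraries. It was 2, Dusp1 and Dusp6, without SKF replicate 1, 4 without SKF replicate 2, 6 without CSP-TTK21 replicate 1, and 0 without CSP-TTK21 replicate 2. In these fits 4.83%, 11.1%, 12.3% and 2.07% of all genes had an unadjusted p-value under 0.05 in either direction, so that the share over all genes moved with the same libraries. Without that last library the log2 fold changes of the 5 genes were between -0.65 and -0.24. With no filter on low counts, 4 of them, Dusp1, Dusp2, Dusp4 and Dusp5, passed the adjusted threshold with edgeR, against 0.622% of all genes tested (157 of 25251).

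**Figure D3:**
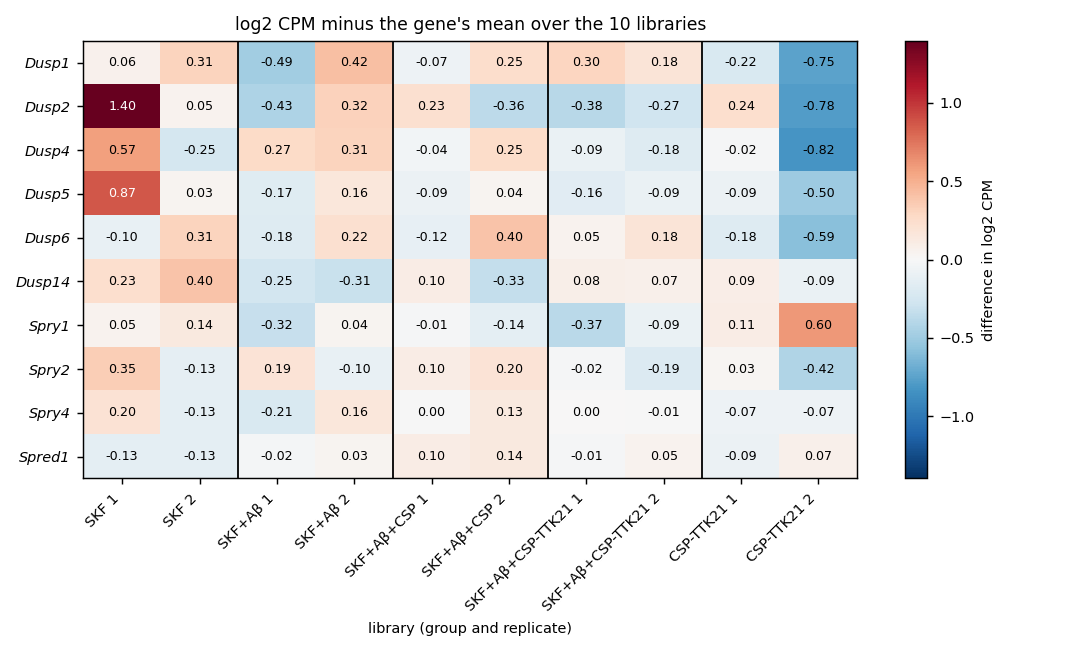
Log2 CPM of each gene (rows) in each library (columns) minus the mean of the gene over the 10 libraries. Red is above and blue below the mean, and black lines part the groups. The first SKF library is 1.40 above the mean for Dusp2 and 0.87 for Dusp5, and the second CSP-TTK21 library is 0.82 below for Dusp4 and 0.75 below for Dusp1.

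The first SKF library and the second CSP-TTK21 library thus set the ends of the range for several phosphatases. SKF replicate 1 was the highest library for Dusp2, Dusp4, Dusp5, Spry2 and Spry4, and it also had the lowest mitochondrial share of counts. Both SKF libraries, the baseline of 4 comparisons, stood apart from all 8 others in this share, at 3.60% and 5.55% against 5.91% to 7.74%, and in that of small structural RNAs, at 1.02% and 1.21% against 0.750% to 0.992%. The summed dentate gyrus markers were lowest in that library, at 196 normalized CPM against 214 to 300 in the others. CSP-TTK21 replicate 2 had the lowest sum of CA1 markers, 245 against 288 to 528, and the highest sum of astrocyte markers, 4793 against 3237 to 4552. The part of these differences in the values of the feedback genes was not tested.

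Genes of this set that varied together over the 10 libraries were examined by Pearson's r of log2 CPM for all 45 pairs, of which 27 were above 0. Dusp1 and Dusp6 had r = 0.90 (permutation test, p = 0.00018, adjusted over the 45 pairs 0.00810) and Spearman's rho = 0.89 (permutation test, adjusted p = 0.0477). Without the 2 libraries farthest from the median of Dusp1, r was 0.80, and it was 0.83 for deviations from the group means. This was the one pair of the 45 with an adjusted p-value under 0.05 by both measures. Pairs of other genes were not tested, so no share over all genes can be set beside these counts. The permutations shuffled libraries across the 5 groups.

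Dusp2 and Dusp5 had r = 0.92 (permutation test, adjusted p = 0.0209) and rho = 0.84 (permutation test, adjusted p = 0.0864), and r was 0.53 without the 2 libraries farthest from the median of Dusp2. Dusp4 and Spry2 had r = 0.87 (permutation test, adjusted p = 0.0223) and rho = 0.78 (permutation test, adjusted p = 0.156), and r was 0.58 without 2 libraries. For deviations from the group means r was 0.89 in each of these pairs, but these deviations are largest in the SKF and CSP-TTK21 groups, which hold the extreme libraries, so this value is no separate support. Spry1 ran against Dusp4 and Spry2, with r = -0.60 and -0.59, which did not pass (permutation test, adjusted p = 0.311 for each). All these pairs share libraries and scaling.

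**Figure D4:**
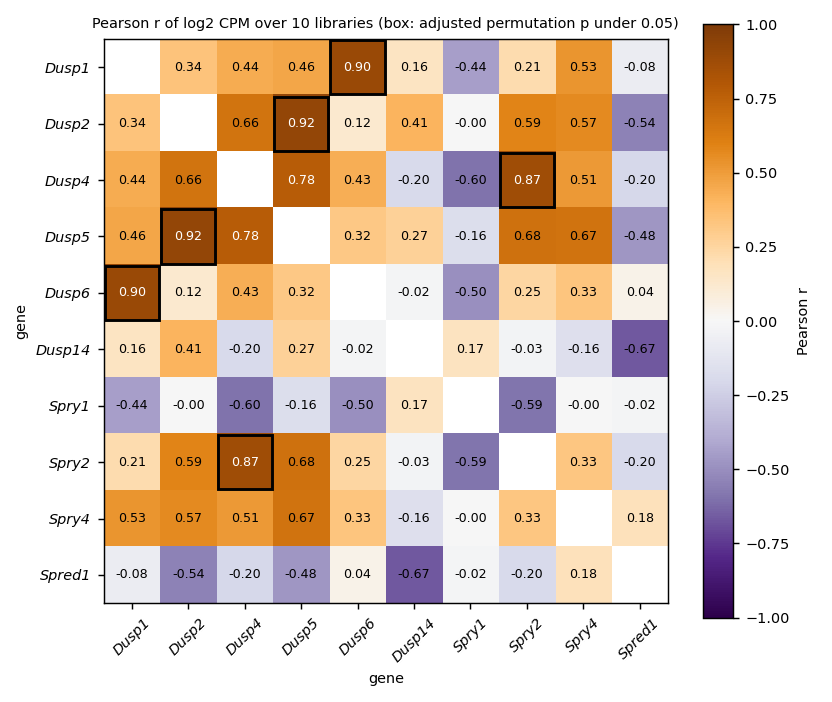
Pearson's r of log2 CPM over the 10 libraries for each pair of genes (rows and columns), with boxes where the permutation p-value adjusted over 45 pairs was under 0.05. The boxed pairs are Dusp1 with Dusp6, Dusp2 with Dusp5, and Dusp4 with Spry2.

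Among 10764 other genes with a mean of at least 50 counts, those most like Dusp1 over the 10 libraries were Egr1 (r = 0.95, rho = 0.89), Btg2 (r = 0.94, rho = 0.81) and Nfil3 (r = 0.92, rho = 0.79). For Dusp5 they were LOC100909521 (r = 0.94, rho = 0.64), Gadd45g (r = 0.94, rho = 0.84) and Fosl2 (r = 0.94, rho = 0.84). Those nearest to Dusp2 were Rap1gap (r = 0.94, rho = 0.95), Grb14 (r = 0.93, rho = 0.95) and Gadd45g (r = 0.92, rho = 0.83). For Dusp4 they were Nrxn3 (r = 0.94, rho = 0.87), Plk2 (r = 0.93, rho = 0.78) and Rdh13 (r = 0.93, rho = 0.81). Each is the highest of many candidates in the same libraries, and the values carry no test.

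The rest of the family was set beside these genes. Of 9 other MAPK phosphatases, all were lower in SKF+Aβ than in SKF in estimate and 0 passed the adjusted threshold, with a median log2 fold change of -0.33 beside -0.0013 over all genes. All 9 were lower in estimate in CSP-TTK21 alone as well, a group without Aβ, with a median of -0.24, and 7 of 9 in each of the other groups against the same SKF libraries. With SKF+Aβ as the baseline, 8 of 9 were higher for the loaded particle in estimate, with a median of 0.30 beside 0.011 over all genes, and 0 passed. Dusp9, an ERK phosphatase, was at 5.79 and 4.66 normalized CPM in SKF and 2.12 and 2.34 with the vehicle (SKF+Aβ+CSP), and these groups did not overlap. Its log2 fold change there was -1.23 (SE 0.35, edgeR adjusted p = 0.104). Dusp10, a phosphatase of p38 and JNK, had 82.4 and 114 in the SKF+Aβ+CSP libraries against 60.6 and 61.6 in the SKF+Aβ libraries, a log2 fold change of 0.68 (adjusted p = 1.00 from edgeR). Of 3 other Sprouty-family genes 0 passed in any comparison. Spred3, a relative of Spred1, was at 25.0 and 20.4 in SKF and 18.1 and 14.0 in CSP-TTK21, a log2 fold change of -0.50 (adjusted p = 0.633 from edgeR), and Spred2 had -0.16 there.

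Among 22 tested rows of the ERK cascade 0 passed in any comparison. The lowest adjusted p-values were those of Rasa1, a GTPase-activating protein of Ras, at 88.6 and 93.8 normalized CPM in SKF+Aβ against 49.5 and 66.7 in SKF, with an adjusted p-value of 0.0689 from edgeR, and of the adaptor Shc1, at 12.4 and 11.5 against 20.3 and 18.1, with 0.0845. Against the same SKF libraries Rasa1 had log2 fold changes of 0.65 with the vehicle, 0.64 with the loaded particle and Aβ, and 0.40 in CSP-TTK21 alone, and Shc1 had -0.14, -0.68 and -0.32. Of 9 tested genes of the p38 and JNK cascades 1 passed in SKF+Aβ against SKF, where 2.08% of all genes passed. It was Mapk9, which encodes a JNK kinase, and the call was lost without any 1 of the 10 libraries. It was at 149 and 166 in SKF+Aβ against 109.1 and 108.8 in SKF, a log2 fold change of 0.53 (SE 0.13, edgeR adjusted p = 0.0497). Mapk8, another JNK kinase, had a log2 fold change of 0.60 there with an adjusted p-value of 0.0643. Against the same SKF libraries Mapk8 had 0.65 with the vehicle, 0.53 with the loaded particle and Aβ, and 0.59 in CSP-TTK21 alone, and Mapk9 had 0.46, 0.48 and 0.24, with 0 of these 6 past the adjusted threshold in edgeR. Of 13 growth factor receptors 0 passed, and Fgfr3 had -0.65 in SKF+Aβ against SKF with an adjusted p-value of 0.0715 from edgeR, and 0.00091 in CSP-TTK21 alone. Flt1, a receptor of vascular endothelial growth factor, was at 35.2 and 34.1 normalized CPM with the loaded particle and Aβ against 81.5 and 60.6 in the vehicle group, which is -1.04 on the log2 scale (SE 0.23, edgeR adjusted p = 0.428). It had -0.80 for the loaded particle with Aβ against SKF, -0.68 against SKF+Aβ, and -0.12 between SKF+Aβ and SKF. The summed endothelial markers, with Cldn5 at 0, were at 24.9 and 28.3 with the loaded particle and Aβ and 66.4 and 53.5 with the vehicle, and their part in the Flt1 values was not tested.

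Of 13 tested transcripts that ERK signaling is known to raise, 2 passed in SKF+Aβ against SKF, both lower, where 2.08% of all genes tested passed in either direction. Myc, a transcription factor of cell growth, was at 48.1 and 40.9 normalized CPM against 67.9 and 78.7, a log2 fold change of -0.72 (SE 0.15, edgeR adjusted p = 0.0401). Ccnd1, a cyclin of the cell cycle, was at 66.1 and 51.3 against 100.6 and 99.2, a log2 fold change of -0.77 (SE 0.17, edgeR adjusted p = 0.0422). Both were also below SKF in estimate in CSP-TTK21 alone, which had no Aβ, with log2 fold changes of -0.35 for Myc and -0.46 for Ccnd1, and neither passed there (adjusted p = 0.633 for each from edgeR). Summed pyramidal neuron markers were lower in SKF+Aβ, at 3456 and 3842 against 4195 and 4684 in SKF. Summed interneuron markers were higher there, at 365 and 518 against 357 and 364. The part of these sums in the calls of Myc, Ccnd1 and Mapk9 between SKF+Aβ and SKF was not tested. In the fit of only these 4 libraries the log2 fold changes were close to those above, -0.71 for Myc, -0.76 for Ccnd1 and 0.54 for Mapk9, while the calls were lost, with adjusted p-values from edgeR of 0.0958, 0.0880 and 0.130. Left out in turn, 6 of the 10 libraries each ended the calls of Myc and Ccnd1, with adjusted p-values up to 0.147 from edgeR, and for Mapk9 the values without 1 library went up to 0.158. In CSP-TTK21 against SKF, 6 of the 13 were lower at an unadjusted p-value under 0.05, against 3.63% of all genes, and 0 passed the adjusted threshold, with a median log2 fold change of -0.35 beside 0.0023 over all genes. No count with single libraries left out is given for this list. The immediate early genes Fos and Egr1, chosen after their values were seen, had log2 fold changes of -1.16 and -0.97 there, with an adjusted p-value of 0.633 for each from edgeR. Their libraries did not overlap, with Fos at 488 and 597 in SKF and 288 and 200 in CSP-TTK21.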

How the data were processed

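The RNA of the CA1 region was sequenced with a stranded kit after ribosomal RNA had been removed. What the authors deposited was, for each of 10 libraries, the raw whole-number count of every gene of a rat Ensembl annotation. The paper's methods describe Trim Galore, Samtools for duplicate removal and TopHat2, then Cufflinks and Cuffdiff to quantify transcripts, and name a rat and later a mouse assembly. The submitters' processing notes name STAR, HISAT2, RSEM, Salmon and GRCh38. Which of these programs gave the deposited whole-number counts, and with which annotation and strand setting, is not given in the sources used here, so counts of overlapping genes and of near-identical copies are uncertain. Duplicate removal without molecular identifiers can lower the counts of abundant genes.

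Groups and replicate numbers came from the sample titles. The analysis was run in R 4.3.3 with edgeR 4.0.16 (filterByExpr by group, TMM factors, 1 quasi-likelihood fit of all 10 libraries with no covariate). It gave 7 comparisons and a test over the 5 groups, adjusted by Benjamini-Hochberg over 15032 genes, with a threshold of 0.05. Log2 CPM used a prior count of 2. The script was tested on simulated data. Correlations were tested two-sided with 100000 permutations. Alternatives were a block on replicate number, a fit limited to the groups being compared, DESeq2 1.42.0, limma 3.58.1, RLE factors, library sizes without mitochondrial genes and small structural RNAs, no filter, at least 10 counts in every library, other call criteria, among them the study's log2 fold change limit of 1.5, and each library left out in turn. The floor of 3 counts covers counting error only.

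Members, gene lists, markers and motifs were chosen with earlier results of these data known. Named genes are all members, list genes past the adjusted threshold in any test and in any case the 2 of each list with the lowest p over the 5 groups, and the 3 genes with the highest r to each of the 4 members with the lowest p over the groups. Rasgrf2 and Ier2 matched no row, and Map2k3 was too low to be tested. Replicates differed beyond counting noise in every group (chi-square per degree of freedom 4.73 to 12.1), and each counts as 1 replicate.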

Additional observations from a re-analysis of the deposited data

How the results depend on the processing

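With DESeq2, limma, RLE factors, reduced library sizes, at least 10 counts in every library, the fold change limit, or a fit of only 4 libraries, 0 members passed the adjusted threshold. Whether replicate numbers pair the libraries is not settled by these values. Deviations from the group means correlated between libraries of one number at r from -0.069 to 0.24 across genes. This r was over 0.1 in 4 of 10 pairs of groups. With the replicate block 0 members passed, while calls over all genes went from 312 to 425 between SKF+Aβ and SKF, 3 to 7 for the vehicle group and 1 to 108 for the loaded particle group against SKF, 0 to 14 between these groups, and 1 to 15 over the 5 groups. With no filter on low counts 4 members passed over the 5 groups, 1 in SKF+Aβ, 1 with the vehicle, 2 with the loaded particle and 4 in CSP-TTK21, each against SKF, beside 5.55%, 5.19%, 2.99%, 3.57% and 0.622% of all genes, and the cause was not tested. With the filter, at an unadjusted p-value under 0.05, the members were 1, 1, 1, 2 and 5 in the same tests, beside 14.4%, 22.8%, 19.4%, 19.6% and 7.78% of all genes. With 1 library left out, 0 to 2 members passed in SKF+Aβ+CSP-TTK21 against SKF (2, Dusp2 and Dusp5, without SKF replicate 2, where calls over all genes went from 1 to 335, 2.14%), a lone library being taken to vary like the other groups.

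Calls over all genes between SKF+Aβ and SKF were 1311 without the filter, 818 with DESeq2, 12 in the fit of only 4 libraries, 22 with the fold change limit, and 1 to 301 with 1 library left out (1 without SKF+Aβ replicate 1). Without the filter they were 754, 902 and 157 for vehicle, loaded particle and CSP-TTK21 against SKF, 66 and 128 for vehicle and loaded particle against SKF+Aβ, 307 between these groups, and 1401 over the 5 groups. DESeq2 gave 456, 330 and 3 against SKF, 21 between loaded particle and vehicle, and 386 over the 5 groups.

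Of the 70 differences of single members, 35 changed sign when 1 library was left out, each at most 0.35 in size with all libraries. The log2 ranges were, in SKF+Aβ against SKF, Dusp1 -0.70 to 0.21, Dusp4 -0.28 to 0.53, Dusp6 -0.32 to 0.14, Spry2 -0.30 to 0.16 and Spry4 -0.27 to 0.10. For the vehicle against SKF they were Dusp1 -0.28 to 0.040, Dusp4 -0.46 to 0.35, Dusp6 -0.25 to 0.27, Spry2 -0.20 to 0.26 and Spry4 -0.14 to 0.18. For the loaded particle with Aβ against SKF they were Dusp1 -0.085 to 0.18, Dusp4 -0.70 to 0.099, Dusp6 -0.21 to 0.22, Spry2 -0.44 to 0.010 and Spry4 -0.20 to 0.11, and for CSP-TTK21 alone Spry4 -0.27 to 0.059. Between vehicle and SKF+Aβ they were Dusp1 -0.32 to 0.59, Dusp2 -0.37 to 0.43, Dusp5 -0.18 to 0.15, Dusp6 -0.15 to 0.37, Dusp14 -0.049 to 0.40, Spry1 -0.11 to 0.26, Spry2 -0.031 to 0.25 and Spry4 -0.091 to 0.28. Between loaded particle and SKF+Aβ they were Dusp1 -0.18 to 0.74, Dusp2 -0.68 to 0.11, Dusp5 -0.29 to 0.046, Dusp6 -0.11 to 0.30, Spry1 -0.27 to 0.10, Spry4 -0.16 to 0.21 and Spred1 -0.025 to 0.044. Between loaded particle and vehicle they were Dusp1 -0.0064 to 0.31, Dusp2 -0.58 to 0.032, Dusp6 -0.29 to 0.23 and Dusp14 -0.032 to 0.42. Otherwise signs changed near 0 for Spry2 and Spry4 (vehicle against SKF) without the filter, -0.0036 and -0.0040, Dusp6 (loaded particle against SKF) with the replicate block, 0.0069, and limma, 0.011, and Spry4 and Spred1 (loaded particle against SKF+Aβ) with at least 10 counts, -0.011 and -0.014.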
